A study of Mus musculus with 9 samples.

Results

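Focal adhesions are plaques of protein at the places where a cell holds the extracellular matrix. Integrins bind the matrix outside, talin and kindlin bind the integrin tails inside, and vinculin, α-actinin and the ILK-PINCH-parvin complex tie the tails to actin filaments. Kinases of the FAK and Src families, together with paxillin, p130Cas, Crk and GIT proteins, pass the state of the adhesion on to the small GTPases that steer spreading and migration, while zyxin and its relatives gather on adhesions under tension. The RNA of 47 genes of this apparatus was followed here in MLP29 cells, a mouse hepatic progenitor line. The genes are a chosen list, drawn from general knowledge of the structure but with earlier results of these data known. Shares of the list set beside those of all genes are therefore descriptions, and the list was not tested. A gene counted as measured when a probe set named it alone. By that rule 42 of the 47 were measured, by 99 probe sets, among 12393 genes measured in all. Tln2, Tns3, Ptk2 (FAK itself), Pak1 and Nedd9 are not named alone by any probe set in the annotation used, and nothing is reported on them.

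The 9 arrays (Affymetrix Mouse430A_2) come from 3 conditions with 3 arrays each. All cells, the untreated ones included, were first kept in 0.1% serum for at least 16 h. They were then left untreated, given 20 ng/ml of HGF/SF1 (hepatocyte growth factor, which scatters these cells), or given 10 µg/ml of BMB5, an antibody that blocks the fibronectin receptor α5β1 integrin, for 24 h. The question was what blocking this integrin does to the transcriptome, with the growth factor as a second way to induce scattering. Each of 3 experiments held the 3 conditions once, and the experiments are numbered here 1 to 3. MLP29 is a single cell line. The study's methods name an IgG antibody among the controls of its treatments in general, but describe the control cells of the arrays as untreated. With no array described as given an IgG, the effects of blocking the integrin and of adding an antibody cannot be told apart.

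Values are on the log2 scale, 1 per probe set and array. A gene takes the probe set that is brightest on average. Because probe sets differ in how well they bind, changes are compared between conditions for 1 gene. Levels of different genes are set beside the median brightness, or summed over marker lists, only as a rough description. A member is said to be called where limma, fitted over 22626 probe sets, gave an unadjusted p under 0.05, and the Benjamini-Hochberg adjusted p over all probe sets is given beside it. Of the 42 brightest probe sets, 39 lay above the median brightness of all probe sets (6.02), and those of Fyn, Parvb and Sorbs3 lay below it. The antigen's own genes were not called after the antibody, with a log2 change of 0.15 (SE 0.34) for Itga5 and 0.05 (SE 0.17) for Itgb1.

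The cells, which the study describes as liver progenitors, carried several but not all of the epithelial markers listed. Krt8, Krt18, Krt19 and Cdh1 had means of 13.79, 14.01, 13.23 and 10.75, while Epcam, Prom1 and Sox9 (4.34, 4.39 and 5.28) lay below the median brightness, 5 of the 8 measured biliary and progenitor markers being above it. Of 7 hepatocyte markers 1 lay above it, Hnf4a (9.28), and Alb lay at 4.01. None of 8 markers of stellate cells and fibroblasts and none of 6 of endothelium lay above it. Of 8 macrophage and leukocyte markers 2 did, Cd14 and Cd68, and the pan-leukocyte gene Ptprc lay at 3.25. The summed level of that list, as a log2 value, was 11.76 to 12.23 on the untreated, 11.76 to 12.15 on the HGF/SF1 and 11.17 to 12.40 on the antibody arrays. Cd68 alone of them was called after the antibody (change 2.60, SE 0.65, adjusted p = 0.207 in limma), with no overlap between its antibody and untreated arrays. With the experiment added to the fit as a block, Hnf4a was called lower (change -0.86; -0.79, -1.16 and -0.62 within experiments; adjusted p = 0.0680 in limma) and Sox9 higher (0.67; 0.17, 1.16 and 0.68; adjusted p = 0.191 in limma). The summed hepatocyte list was 9.16 to 10.18, 8.99 to 10.26 and 8.72 to 9.51 in the same order of conditions. The biliary and progenitor list summed to 15.37 to 15.55, 15.30 to 15.51 and 15.22 to 15.32. Sums were taken before the log, so each mostly follows the brightest genes of its list. That is Hnf4a for the hepatocyte list and Cd14 for the macrophage and leukocyte list. The median log2 change after the antibody was 0.06 in each of these lists. The part of these markers in the results below was not tested. In RNA from whole cultures, fewer cells of a type and less RNA per cell cannot be told apart. The log2 ratio of 3' to 5' probe sets lay from -0.32 to -0.06 (Gapdh) and from 0.20 to 0.87 (Actb). For Actb, in experiments 1 to 3, it was 0.23, 0.87 and 0.20 on the untreated arrays. With HGF/SF1 it was 0.30, 0.75 and 0.61, and with the antibody 0.23, 0.37 and 0.24. The part of this ratio in the results was not tested.

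Promoter sequence is shown for 6 of the members that are called or become so when the experiments are paired. The 6 are examples, most of them with a match to a motif named below. Actn1, Git2, Csk, Src, Git1, Pdlim5, Pdlim7 and Vasp, called in the same ways, have no match and are not printed. The printed stretches therefore do not give the share of called members with a match. RefSeq's table (GRCm38.p6) holds 51 promoters of 35 of the 42 members and none of Lims2, Pak2 or Pxn. The 250 bases before each start were searched on both strands for the CArG box of serum response factor (by its consensus), the AP-1 site TGANTCA and the TEAD site GGAATG. No pair of these motifs overlapped in a printed sequence. Capitals mark the matches.
Lims1 (chr10:58323297-58323546, plus strand, no match): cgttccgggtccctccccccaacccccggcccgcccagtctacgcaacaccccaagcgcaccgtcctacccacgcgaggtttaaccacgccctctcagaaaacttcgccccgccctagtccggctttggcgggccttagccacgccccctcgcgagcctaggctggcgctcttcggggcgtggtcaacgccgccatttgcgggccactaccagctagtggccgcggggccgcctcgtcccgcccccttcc
Lpp (chr16:24721605-24721854, plus strand, TEAD site): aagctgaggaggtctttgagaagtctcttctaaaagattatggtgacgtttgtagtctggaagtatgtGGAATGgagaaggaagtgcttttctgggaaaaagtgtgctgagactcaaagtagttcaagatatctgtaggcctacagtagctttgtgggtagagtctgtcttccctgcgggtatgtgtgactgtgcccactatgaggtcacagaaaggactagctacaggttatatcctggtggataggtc
Fermt2 (chr14:45530066-45530315, minus strand, CArG box): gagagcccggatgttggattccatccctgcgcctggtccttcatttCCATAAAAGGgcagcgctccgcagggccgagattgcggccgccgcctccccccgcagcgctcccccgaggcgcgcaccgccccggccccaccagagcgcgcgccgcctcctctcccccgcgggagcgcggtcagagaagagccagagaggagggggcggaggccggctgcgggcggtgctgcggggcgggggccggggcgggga
Cav2 (chr6:17280935-17281184, plus strand, AP-1 site): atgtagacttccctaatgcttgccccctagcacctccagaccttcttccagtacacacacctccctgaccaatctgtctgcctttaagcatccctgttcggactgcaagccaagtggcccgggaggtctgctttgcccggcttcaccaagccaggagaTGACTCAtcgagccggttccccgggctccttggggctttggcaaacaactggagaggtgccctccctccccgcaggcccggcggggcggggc
Vcl (chr14:20929148-20929397, plus strand, CArG box and TEAD site): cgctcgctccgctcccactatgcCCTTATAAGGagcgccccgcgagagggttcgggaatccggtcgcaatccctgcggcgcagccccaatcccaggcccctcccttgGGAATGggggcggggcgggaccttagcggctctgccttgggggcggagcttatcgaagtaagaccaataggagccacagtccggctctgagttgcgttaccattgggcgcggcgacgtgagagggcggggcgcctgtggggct
Zyx (chr6:42349578-42349827, plus strand, AP-1 site): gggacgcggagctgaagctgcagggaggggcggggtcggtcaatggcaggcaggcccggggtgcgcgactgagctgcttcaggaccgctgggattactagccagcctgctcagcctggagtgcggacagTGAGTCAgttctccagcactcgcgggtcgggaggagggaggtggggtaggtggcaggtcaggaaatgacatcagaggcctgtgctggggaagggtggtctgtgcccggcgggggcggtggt

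A CArG box stood in 4 of the 51 member promoters (7.84%), those of Fermt2, Vcl and 2 of Fhl2, against 1.34% of the 12566 promoters of measured genes and 1.47% of all 32851 listed. AP-1 sites stood in 7.84% of the member promoters (Actn4, Cav2, Ddr1 and Zyx) and in 5.67% of those of measured genes. TEAD sites stood in 7.84% of the member promoters (Actn4, Lpp, Trip6 and Vcl) and in 11.4% of those of measured genes. The printed Lpp stretch is the second of 2 listed for that gene. None of these motifs lay in the listed promoters of Lims1, Actn1, Git2, Csk or Src. These are matches of letters in short windows, and no binding was measured. Member promoters were rich in CpG, with a median of 17 in 250 bases, against 13 over measured genes and 6 over all.

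After the antibody, 6 members were called higher and 1 lower. Higher were Lims1 and Lims2 (the PINCH adaptors), Actn1 (α-actinin-1), Pak2 (a kinase that GTP-bound Rac and Cdc42 activate), Git2 (a paxillin-binding scaffold) and Lpp (a zyxin relative). Csk, the kinase that holds Src family kinases in check, was lower. The 7 called are 16.7% of the 42 members, beside 12.6% of all genes in either direction. By direction, 14.3% of the members were higher, beside 4.68% of all genes, and 2.38% were lower, beside 7.92%. Most members lay above the median brightness, and no share was taken over genes of like brightness. Among the members, 27 changes lay above 0 and 15 below, with a median log2 change of 0.06 (-0.0018 over all genes), and they ran from -0.79 for Csk to 0.88 for Lpp. After adjustment in limma 0 members and 0.0403% of all genes kept a p under 0.05, and the smallest adjusted p of a member was 0.157, for Lims1.

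**Figure D1:**
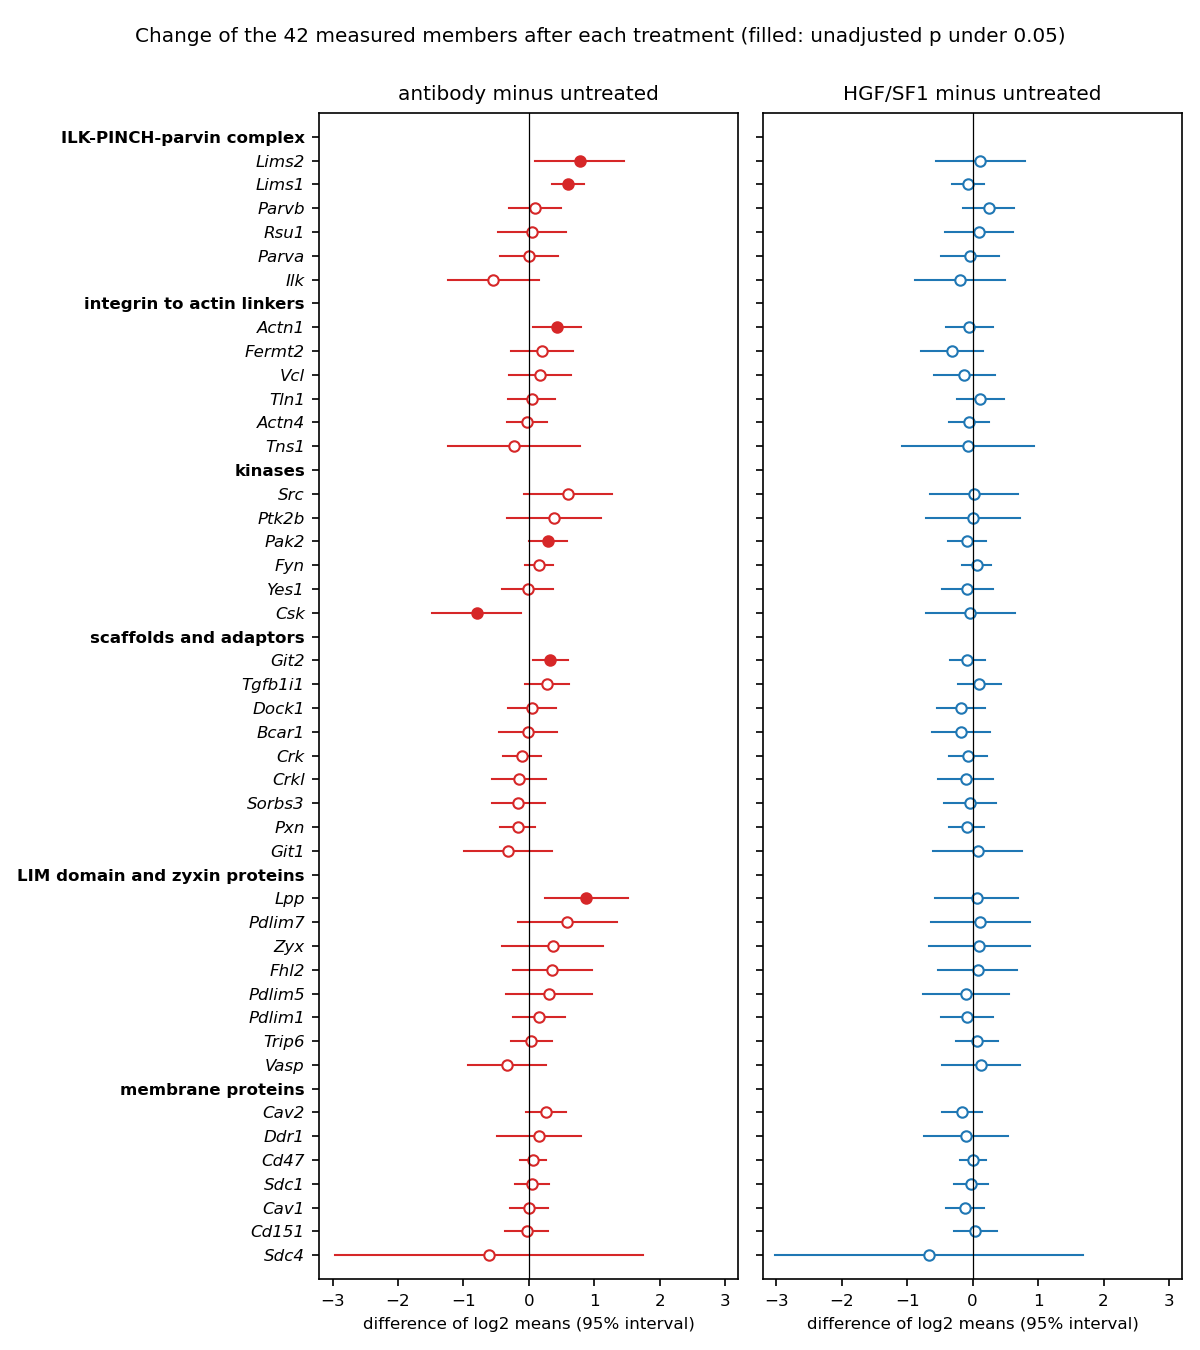
Each of the 42 measured members by role, with its difference of log2 means (point) and 95% interval (bar) after the antibody (left) and after HGF/SF1 (right); filled points have an unadjusted limma p under 0.05. The 7 filled points are all on the left, from -0.79 for Csk to 0.88 for Lpp, and the widest interval is that of Sdc4.

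When the fit took the experiment as a block, 12 members were called after the antibody, 10 higher and 2 lower. All genes then had 7.81% higher and 10.7% lower, and after adjustment 0.121% of all genes and 0 members passed. The 5 added were Src (log2 change 0.60), Zyx (0.37), Pdlim7 (0.59) and Cav2 (0.26), all higher, and Git1 (-0.31). The median difference of the members was above 0 within each experiment, at 0.10, 0.04 and 0.19 in experiments 1, 2 and 3, where that of all genes was 0.00, -0.02 and 0.01.

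The ILK-PINCH-parvin complex couples β1 integrin tails to actin, and of its 6 measured genes the 2 coding for PINCH proteins were called. Lims1 (PINCH-1) read 9.94, 9.77 and 9.71 on the untreated arrays of experiments 1 to 3, then 9.89, 9.62 and 9.71 with HGF/SF1, and 10.37, 10.42 and 10.44 with the antibody. Every antibody array was above the other 6, which overlapped one another. The means were 9.81 ± 0.12 untreated, 9.74 ± 0.14 with HGF/SF1 and 10.41 ± 0.04 with the antibody (SD, n = 3). The change after the antibody was 0.60 (SE 0.11), 1.51-fold (adjusted p = 0.157 in limma). It was called under all 19 alternatives run, and the change ranged from 0.54 to 0.79. The other 2 probe sets of Lims1 read higher as well, by 0.87 and 0.90, of which the first was called. The brightest set is of the kind whose probes can match more than 1 transcript, as are, for example, those of Src, Pxn, Parva and Bcar1.

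Lims2 (PINCH-2) read 8.51, 8.54 and 8.75 untreated, 8.75, 8.56 and 8.84 with HGF/SF1, and 8.65, 9.47 and 10.02 with the antibody. Antibody arrays 2 and 3 stood above all others, while antibody array 1 lay among the untreated and HGF/SF1 arrays. The change was 0.78 (SE 0.30), 1.71-fold, with an adjusted p of 0.355 in limma. Its call was lost without untreated array 1 or 2 (0.73 and 0.75) and without antibody array 2 or 3 (0.73 and 0.46), and without antibody array 1 Lims2 passed the adjusted threshold together with Lims1.

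Ilk, the kinase-like centre of the complex, was not called, with values of 9.42, 9.50 and 9.31 untreated, 8.68, 9.39 and 9.59 with HGF/SF1 and 9.47, 8.40 and 8.75 with the antibody. Antibody arrays 2 and 3 were low and array 1 was among the highest, so the groups overlapped. The change was -0.54 (95% interval -1.23 to 0.15), and without antibody array 1 it was -0.84 and called. Parva, Parvb and Rsu1, which link ILK to actin or bind PINCH-1, differed by -0.0018, 0.10 and 0.05, and none was called.

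**Figure D2:**
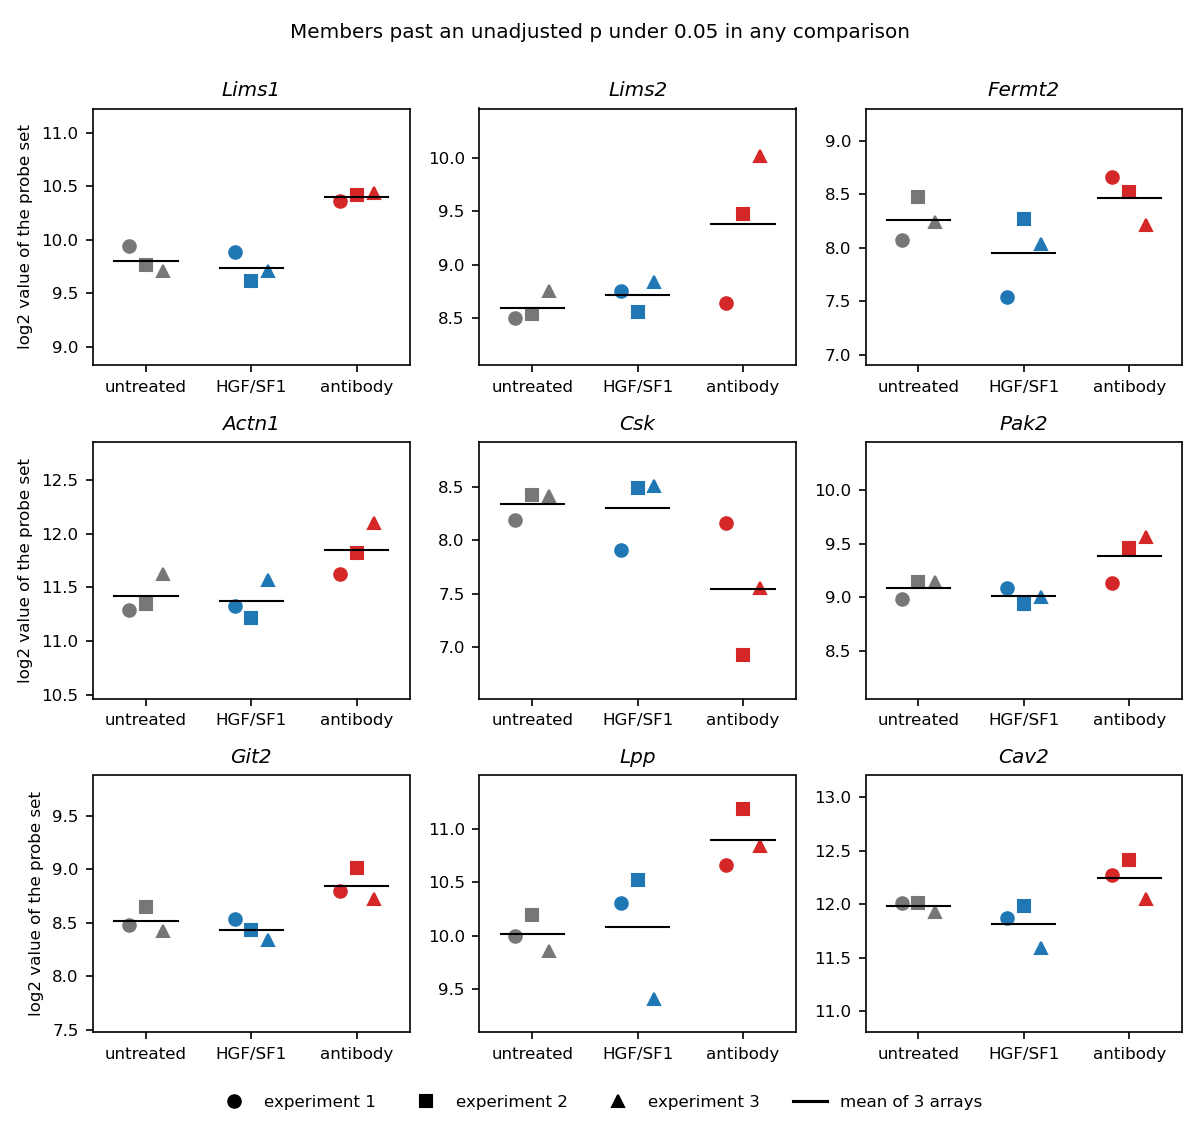
Log2 value (vertical axis) on each of the 9 arrays for the 9 members past an unadjusted p under 0.05 in at least 1 comparison, by condition, with the experiment as marker shape and the mean of 3 arrays as a line. For Lims1 the antibody arrays sit between 10.37 and 10.44, above all others, and for Lims2 and Csk antibody array 1 sits near the other conditions.

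Among the linkers from integrin to actin, Actn1 was the 1 called of 6. This actin crosslinker read 11.29, 11.34 and 11.62 untreated, 11.33, 11.21 and 11.57 with HGF/SF1, and 11.63, 11.82 and 12.11 with the antibody. All antibody arrays were above all untreated ones, though antibody array 1 exceeded untreated array 3 by little, and within experiments the differences were 0.33, 0.48 and 0.48. The change was 0.43 (SE 0.16), 1.35-fold (adjusted p = 0.340 in limma). Its other 2 probe sets read 0.45 and 0.54 higher, the former called. The call was lost without untreated array 1 or 2 (0.37 and 0.39) and without antibody array 3 (0.31).

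Vcl and Tln1, coding for vinculin and talin-1, were not called after the antibody. Vcl read 10.52, 11.03 and 10.53 untreated, 10.32, 10.87 and 10.51 with HGF/SF1, and 10.61, 11.12 and 10.86 with the antibody. In each experiment its antibody array was the highest, but the experiments themselves differed more, experiment 2 being high in every condition. The change was 0.17 (95% interval -0.30 to 0.64). For Tln1 the values were 9.92, 9.75 and 9.36, then 9.86, 9.83 and 9.70, then 9.90, 9.60 and 9.66 in the same order, with full overlap and a change of 0.04 (SE 0.16). A second, dim Tln1 probe set (mean 5.23) read 0.94 higher and was called, so the 2 sets of this gene disagree in size. Fermt2 (kindlin-2, which activates integrins with talin) differed by 0.20, Actn4 by -0.02 and Tns1 by -0.23, none of them called.

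Of the 6 kinases, Pak2 was called higher and Csk lower. Csk read 8.19, 8.42 and 8.41 untreated, 7.91, 8.49 and 8.51 with HGF/SF1, and 8.16, 6.93 and 7.55 with the antibody. Antibody arrays 2 and 3 were the lowest of the 9, while array 1 fell just short of its untreated partner, so that the experiments gave -0.03, -1.50 and -0.86. The change was -0.79 (SE 0.30), to 0.576 of the untreated level (adjusted p = 0.345 in limma). It rests on 1 probe set, and the call was lost without untreated array 2 or 3 (-0.75 and -0.76) and without antibody array 2 or 3 (-0.48 and -0.80).

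Pak2 read 8.98, 9.14 and 9.14 untreated, 9.09, 8.93 and 8.999 with HGF/SF1, and 9.14, 9.46 and 9.56 with the antibody. Antibody array 1 was level with the highest untreated arrays and the other two were above. The change was 0.30 (SE 0.13), 1.23-fold, with an adjusted p of 0.408 in limma. This was the least stable of the 7 calls, kept in 6 of the 19 alternatives, and lost without any 1 array other than antibody array 1 (0.21 to 0.33).

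Src itself, the kinase that phosphorylates FAK and p130Cas, read 7.20, 7.72 and 7.72 untreated, 7.11, 7.82 and 7.78 with HGF/SF1, and 7.63, 8.19 and 8.62 with the antibody. In each experiment the antibody array was the highest of the 3, by 0.43, 0.47 and 0.90 over untreated, and the groups overlapped because experiment 1 was low throughout. The change of 0.60 (SE 0.29) was not called without the block and was with it (limma adjusted p = 0.484 and 0.0831). Without antibody array 1 it was 0.86 and called. The remaining kinases, the FAK relative Ptk2b (0.38) and the Src family members Fyn (0.15) and Yes1 (-0.01), were not called.

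Scaffolds and adaptors were the group with most changes below 0, 6 of 9, with a median of -0.10. Git2, which brings PAK and its exchange factor to paxillin, was the exception that was called. It read 8.48, 8.65 and 8.42 untreated, 8.54, 8.43 and 8.34 with HGF/SF1, and 8.80, 9.01 and 8.73 with the antibody. All antibody arrays were above all others, with differences of 0.31, 0.37 and 0.30 within experiments. The change was 0.33 (SE 0.12), 1.26-fold (adjusted p = 0.320 in limma), and the call was lost without untreated array 1 or 3 (0.31 and 0.28) and without antibody array 2 (0.24). A second Git2 probe set, dim at 3.41, differed by 0.04.

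Its paralog Git1 read lower in each experiment (-0.05, -0.66 and -0.23), with a change of -0.31 that was called only with the block (limma adjusted p = 0.259). Pxn (paxillin), the docking platform of the group, read 10.19, 10.10 and 10.01 untreated, 10.15, 9.95 and 9.92 with HGF/SF1, and 10.12, 9.83 and 9.84 with the antibody. The antibody array was the lowest of each experiment, yet the groups overlapped, and the change of -0.17 (95% interval -0.44 to 0.10) was not called. Also not called were the paxillin paralog Tgfb1i1 (Hic-5, 0.28), the p130Cas gene Bcar1 (-0.0079), Crk (-0.10) and Crkl (-0.15), the Rac exchange factor Dock1 (0.05) and the vinculin-binding Sorbs3 (-0.16). A dim Crk probe set (mean 5.31) was called lower, with a change of -0.64, while its brighter sets were not.

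Zyxin and its relatives collect on adhesions and stress fibres under tension. The group of LIM domain and zyxin proteins, in which Vasp, not a LIM protein, was also placed, had 7 of 8 changes above 0. Its median was the highest of the 6 groups, 0.34, though Lpp was the only member of it called. Lpp read 9.99, 10.19 and 9.85 untreated, 10.31, 10.52 and 9.41 with HGF/SF1, and 10.66, 11.18 and 10.84 with the antibody. All antibody arrays were above all others, and the HGF/SF1 arrays spread to both sides of the untreated ones. The change was 0.88 (SE 0.28), 1.84-fold (adjusted p = 0.275 in limma), and it was called under all 19 alternatives, from 0.67 to 1.00. Of its other 3 probe sets, those with means of 9.39 and 7.57 read 0.85 and 0.78 higher, the first called, and the dim one (5.49) 0.17.

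Zyx (zyxin, which recruits Ena/VASP proteins) read 6.67, 7.28 and 7.55 untreated, 6.71, 7.26 and 7.82 with HGF/SF1, and 7.27, 7.32 and 8.01 with the antibody. The antibody array was the highest of each experiment, by 0.04 over untreated in experiment 2 and by 0.60 and 0.46 in the others. The change of 0.37 (SE 0.34) was called only with the block (limma adjusted p = 0.218). The PDZ-LIM genes Pdlim7 and Pdlim5 differed by 0.59 and 0.31. All 7 probe sets of Pdlim5 read higher, 2 of them called, at 0.41 and 1.31. Fhl2 (0.36), Pdlim1 (0.16), Trip6 (0.04) and Vasp (-0.33) were not called.

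None of the 7 membrane proteins was called after the antibody. Cav2, which builds caveolae with Cav1, read 12.01, 12.01 and 11.93 untreated, 11.87, 11.98 and 11.60 with HGF/SF1, and 12.28, 12.41 and 12.05 with the antibody. All antibody arrays were above all others, by a change over untreated of 0.26 (SE 0.13) that was called only with the block (limma adjusted p = 0.221). Without antibody array 3 it was 0.36 and called. Cav1 differed by 0.0042, the syndecan Sdc1 by 0.05, the tetraspanin Cd151 by -0.03, Cd47 by 0.07 and the collagen receptor Ddr1 by 0.15. Sdc4, a syndecan that acts beside α5β1 on fibronectin, went from 6.02 to 9.55 over the 9 arrays, with experiment 2 highest in every condition, and its change of -0.61 has an interval of -2.97 to 1.74.

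**Figure D3:**
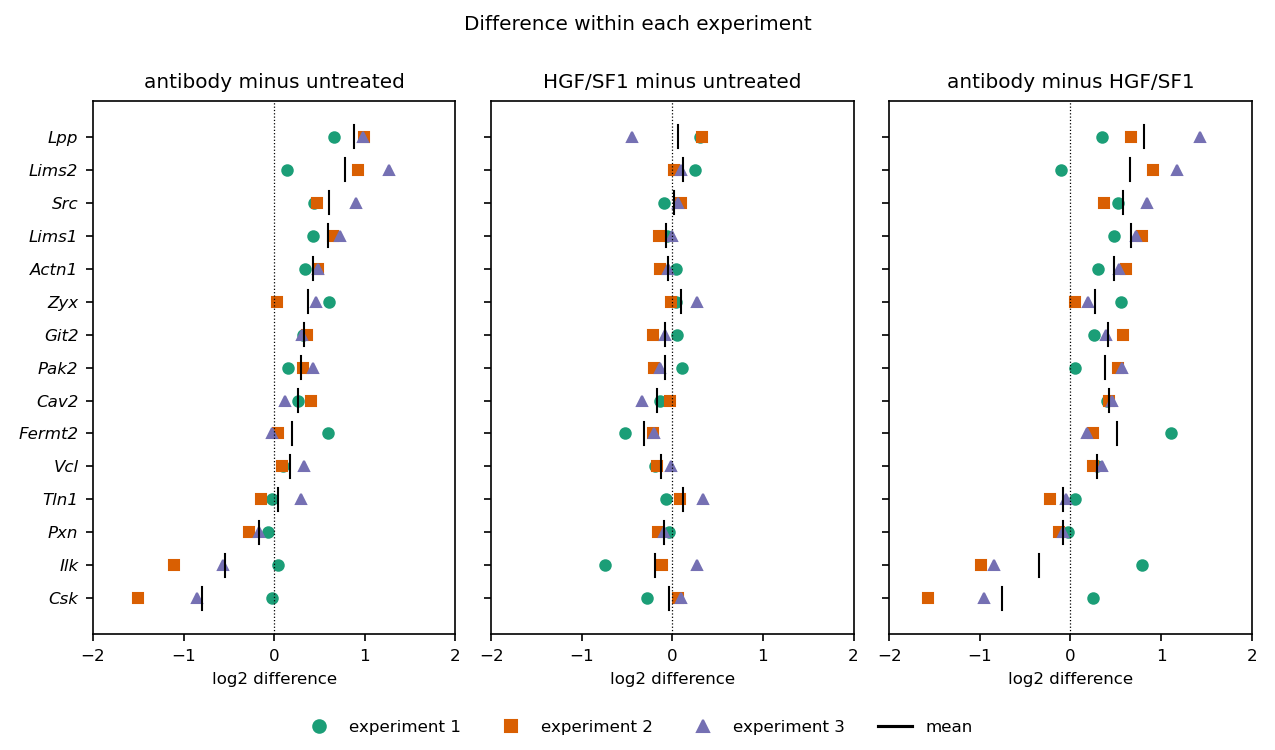
Log2 difference within each of the 3 experiments (coloured markers) and their mean (black bar) for the 15 members described array by array, in the 3 comparisons. In the left and right panels the markers of Lims1, Actn1, Git2 and Src lie above 0 in all 3 experiments, while for Lims2, Csk and Ilk experiment 1 lies apart from the other two.

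The arrays of a condition lay wholly above the untreated ones for 6 members after the antibody, Actn1, Cav2, Cd47, Git2, Lims1 and Lpp, beside 6.21% of all genes. They lay wholly below for Csk alone, beside 8.80% of all genes. Counted by any probe set, 11 members had at least 1 called after the antibody (background 16.4% of genes), and 15 of the 99 probe sets were called, beside 12.3% of all probe sets naming 1 gene. Beyond the 7 above these were Cd151, Pdlim5 and Tln1 higher and Crk lower, mostly through dim sets. After HGF/SF1 no member probe set was called, and between the treatments 11 members had at least 1 called (18.1% of genes) through 14 of the 99 probe sets (13.7%). The 99 probe sets stand for 42 members, and 20380 stand for all 12393 genes. Members thus had more probe sets per gene, which by itself raises a share counted by any probe set.

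**Figure D4:**
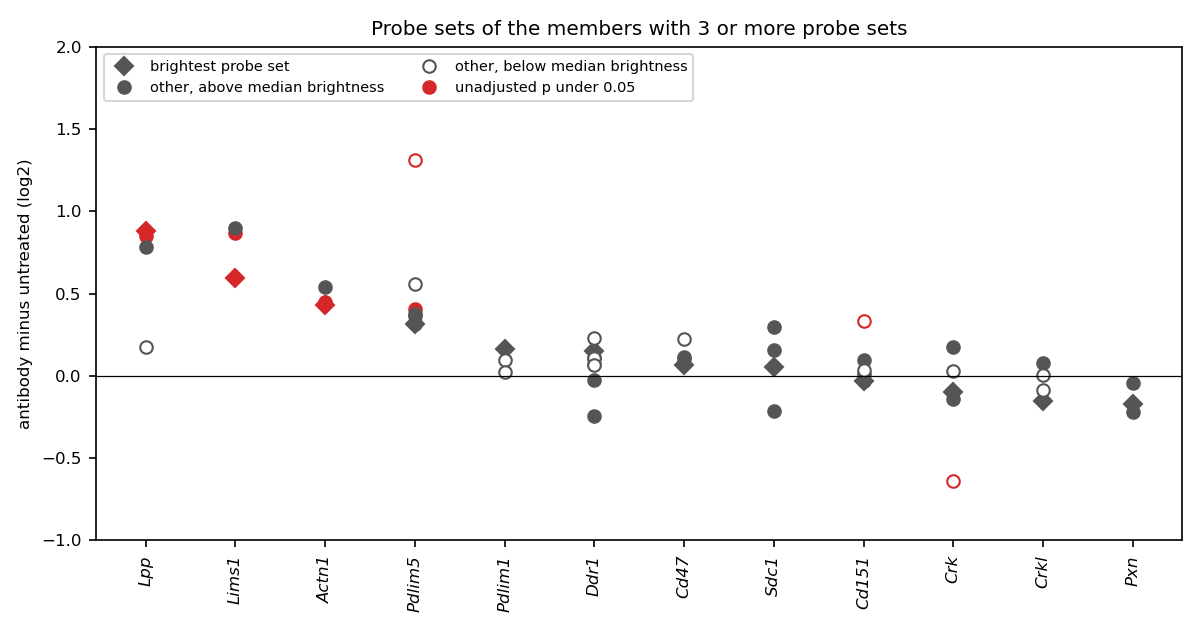
Log2 change after the antibody for every probe set of the 12 members with 3 or more (diamonds: brightest set; open circles: below median brightness; red: unadjusted p under 0.05). The 3 sets of Lims1 (0.60 to 0.90), the 3 of Actn1 (0.43 to 0.54) and the 7 of Pdlim5 (0.31 to 1.31) all lie above 0, while the sets of Crk fall on both sides.

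No member was called after HGF/SF1. By limma, with or without the block, 0 of 42 had an unadjusted p under 0.05, beside 0.839% of all genes (0.533% higher), or 1.66% with the block. The smallest unadjusted p was 0.163 without the block, for Fermt2, and 0.0650 with it, for Sdc4. The changes ran from -0.67 for Sdc4 to 0.24 for Parvb, with a median of -0.05 (0.0080 over all genes), and 17 lay above 0. No member's HGF/SF1 arrays lay wholly above or below the untreated ones, beside 2.41% and 1.53% of all genes. For the 7 members called after the antibody, the change after HGF/SF1 was -0.07 for Lims1, 0.12 for Lims2, -0.05 for Actn1, -0.08 for Pak2, -0.08 for Git2, 0.07 for Lpp and -0.04 for Csk. The 95% intervals reached a median of 0.41 to either side of the change, so smaller changes could not be seen in many members. Without untreated array 3, Parvb, which is below the median brightness, was the 1 member called.

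Set against HGF/SF1 directly, which tests whether the treatments differ, the antibody gave 8 calls in 42 (19.0%, beside 14.1% of all genes). The 7 higher were Lims1, Actn1, Pak2, Git2, Lpp, Fermt2 and Cav2 (5.19% of all genes were higher), and the 1 lower was Csk (8.96%). This comparison shares its antibody arrays with the one above and is not separate evidence of a change. The median member difference was 0.11 (-0.01 over all genes), and 28 of 42 lay above 0. The differences were 0.67 (SE 0.11) for Lims1, 0.82 (SE 0.28) for Lpp, 0.48 (SE 0.16) for Actn1, 0.41 (SE 0.12) for Git2, 0.38 (SE 0.13) for Pak2 and -0.76 (SE 0.30) for Csk. Lims1 had an adjusted p of 0.0982 in limma, so that 0 members passed after adjustment, beside 0.0242% of all genes. With the block its adjusted p was 0.0476, the only member past the threshold, beside 1.13% of all genes. Lims2 (0.66) was called only with the block (limma adjusted p = 0.195).

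Fermt2 and Cav2 were called in this comparison and in neither comparison with untreated. Fermt2 read 8.07, 8.48 and 8.24 untreated, 7.54, 8.27 and 8.03 with HGF/SF1, and 8.66, 8.52 and 8.21 with the antibody. The lowest value, HGF/SF1 array 1, and the highest, antibody array 1, are of the same experiment, which gave a difference of 1.11 where the others gave 0.25 and 0.18. The mean difference was 0.52 (SE 0.21; adjusted p = 0.333 in limma), and without HGF/SF1 array 1 it was 0.31 and not called. That call was also lost without HGF/SF1 array 3 (0.56) and without antibody array 1 or 2 (0.42 and 0.49). For Cav2 the difference was 0.43 (SE 0.13, adjusted p = 0.235 in limma), nearly equal in the 3 experiments at 0.41, 0.43 and 0.46. It was called without each array in turn, though not without experiment 1 (0.44). These values are of the brighter of 2 Cav2 probe sets. The mean of both was 0.17 and not called, so the 2 sets differ in direction. Among the other members called between the treatments without the block, Git2 and Lpp also had sets of both directions. With the antibody, 1 of 2 Git2 sets and 3 of 4 Lpp sets read higher than with HGF/SF1.

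With the block, 15 members were called between the treatments, 12 higher and 3 lower, beside 20.3% of all genes. Vcl (0.30), Src (0.58), Pdlim5 (0.41) and Pdlim7 (0.47) were then added to the higher side with Lims2, and Git1 (-0.39) and Vasp (-0.46) to the lower. Of the other calls without the block, those lost on leaving out 1 array were Actn1 without HGF/SF1 array 2 (0.40) or antibody array 3 (0.35), Lpp without antibody array 2 (0.67, and 0.48 but still called without HGF/SF1 array 3), Pak2 without HGF/SF1 array 2 or antibody array 2 or 3 (0.29 to 0.34), and Csk without HGF/SF1 array 2 or 3 or antibody array 2 or 3 (-0.76 to -0.45). Between the treatments, 6 members' arrays lay wholly apart, all higher with the antibody (5.72% of all genes): Actn1, Cav2, Git2, Lims1, Lpp and Pak2. None lay wholly lower (8.74%).

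The number of members called moved with single arrays. After the antibody it was 7 with all arrays, 3 without untreated array 1 or untreated array 2, 4 without antibody array 2 or 3, and 10 without antibody array 1 (Ilk, Src and Fhl2 added). Between the treatments it was 8 with all arrays, 5 without HGF/SF1 array 2, 4 without antibody array 2 and 11 without antibody array 1 (Ilk, Lims2, Src and Fhl2 added, Fermt2 lost). The members' median change after the antibody was 0.09 without untreated array 1, 0.11 without untreated array 2 and 0.13 without antibody array 2. Between the treatments it was 0.07 without HGF/SF1 array 1 and 0.20 without HGF/SF1 array 2, and after HGF/SF1 it was -0.02 without HGF/SF1 array 1 and 0.01 without untreated array 2. Without the whole of experiment 1, 2 or 3 the calls after the antibody were 7, 2 and 4. Lims1 and Lpp were called after the antibody in every one of these. The precision of all values is limited by the 3 arrays per condition.

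**Figure D5:**
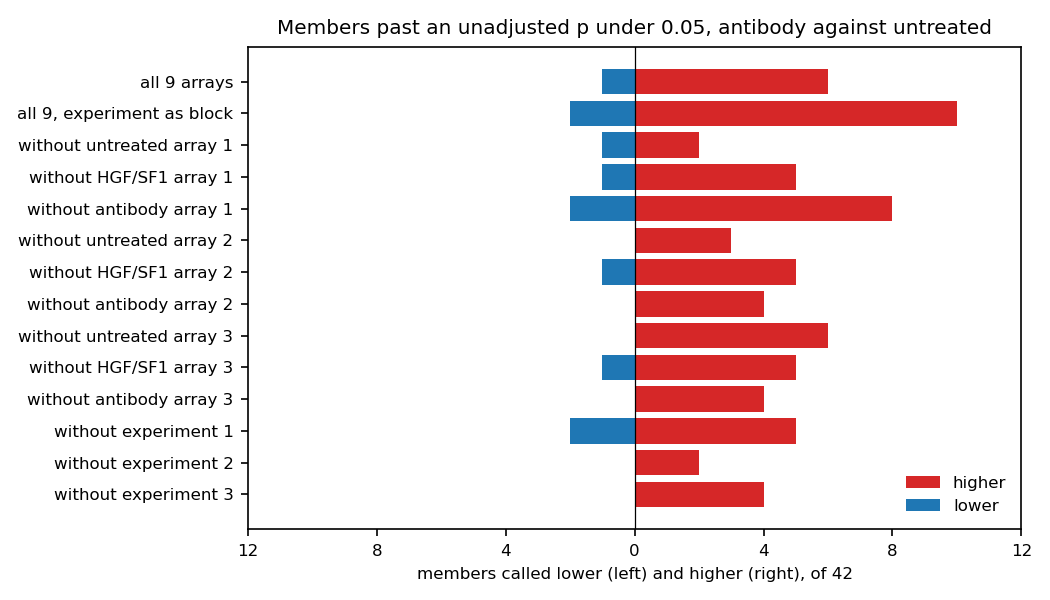
Number of members called higher (red, right) and lower (blue, left) after the antibody against untreated, with all 9 arrays, with the experiment as a block, and without each array or experiment. The total runs from 2 without experiment 2 to 12 with the block, and higher calls outnumber lower ones in every row.

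A second list held 56 other genes of the adhesion machinery, of which 43 were measured. After the antibody 2 of them were called higher and 2 lower (9.30%, beside 12.6% of all genes), and after HGF/SF1 none. With the block 5 were called in each direction after the antibody (23.3%, beside 18.5% of all genes). Enah (Mena, an Ena/VASP protein that elongates actin) read 8.64, 8.82 and 8.94 untreated and 9.001, 9.90 and 9.75 with the antibody, a change of 0.75 (SE 0.27). Nck2, an adaptor that binds PINCH-1, went from 8.17, 8.33 and 8.001 to 8.41, 8.63 and 8.56, a change of 0.37 (SE 0.12). Arhgef7 (β-PIX), the exchange factor that GIT proteins carry, went from 8.04, 8.21 and 7.79 to 7.62, 7.43 and 7.43, a change of -0.52 (SE 0.13). Pik3ca, the catalytic subunit of PI3-kinase, went from 8.04, 8.05 and 8.03 to 7.61, 6.80 and 6.22, a change of -1.16 (SE 0.31). In each of these 4 the antibody arrays lay wholly apart from the untreated ones, with adjusted p values in limma between 0.199 and 0.336. Against HGF/SF1, 8 of the 43 were called, 4 in each direction (18.6%, beside 14.1%).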

How the data were processed

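RNA of MLP29 cells was hybridised to 9 Affymetrix Mouse430A_2 arrays. The authors used affylmGUI with the background correction of rma on all arrays at once, and deposited a log2 value for each probe set and array. The normalization between arrays and the summary method are not given in the sources used here, and array medians ran from 5.91 to 6.08. The values were used as deposited. Conditions came from the sample titles, and the titles' 3 days, each with every condition once, gave the experiments. The pairing rests on these days. As a check, deviations from the condition means were correlated between arrays: r was 0.0958 to 0.591 within an experiment (9 pairs), and -0.484 to 0.0308 between arrays that share neither experiment nor condition (18 pairs). Pairs of 1 condition were left out, since the centring itself makes them negative. The centring also makes the covariances of an array with the 3 arrays of another condition sum to 0. The 9 and the 18 pairs are therefore not independent of each other.

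Of 22690 probe sets, 64 controls were left out. GEO's platform annotation names 1 gene for 20380 of the 22626 others, several for 691 and none for 1555, and 20351 matched a RefSeq gene ID (GRCm38.p6). Only probe sets naming 1 gene gave values of genes. The model held the 3 condition means and was run in limma 3.58.1 (R 4.3.3) with eBayes (6 residual and 2.39 prior degrees of freedom), and tests were two-sided, with Benjamini-Hochberg adjustment over 22626 probe sets. The script was tested on simulated data. The labels do not say that arrays come from separate cultures beyond the day, so p-values measure the spread between these arrays. Alternatives were the experiment as a fixed or random block, median centring, quantile normalization, the mean of a gene's probe sets, a brightness filter, an intensity trend, and leaving out each array or experiment. Counting a member by any probe set was added after seeing the data.

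The members, their roles, the other adhesion genes and the marker lists (biliary and progenitor, hepatocyte, macrophage and leukocyte, stellate and fibroblast, endothelial) were chosen with earlier results of these data known, so the lists were not tested. Members called in any comparison were described array by array, with Src, Pxn, Tln1, Vcl, Zyx and Ilk added whatever their values, and of the other adhesion genes those called after the antibody. Members named only with a change were chosen to complete each group.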

Additional observations from a re-analysis of the deposited data

How the results depend on the processing

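With the experiment as a fixed replicate block, the members called went from 7 to 12 after the antibody and from 8 to 15 between the antibody and HGF/SF1, and 1 member (Lims1) passed the adjusted threshold between the treatments, as it did with the experiment as a random block (1 member). The block added no call after HGF/SF1. Scaling, the mean of all probe sets, the brightness filter and the intensity trend gave 5 to 8 calls after the antibody and 8 to 9 between the treatments, and 0 after HGF/SF1. The median difference between the treatments was 0.17 over the 39 members above the median brightness. With the mean of all probe sets, the Tln1 difference between the treatments turned from -0.08 to 0.46 and was called, since the dim set then counts as much as the bright one. The same mean ended the calls of Git2 (0.18) and Pak2 (0.26) after the antibody and those of Actn1 (0.38), Lpp (0.41) and Cav2 (0.17) between the treatments.

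Leaving out 1 array gave 3 to 10 calls after the antibody, 4 to 11 between the treatments and 0 to 1 after HGF/SF1 (Parvb, without untreated array 3). Leaving out 1 experiment gave 2 to 7, 4 to 10 and 0 to 1. The members past the adjusted threshold were 0 to 2 after the antibody (Lims1 and Lims2 without antibody array 1) and 0 to 3 between the treatments (Lims1, Lims2 and Pak2 without antibody array 1). With 1 experiment left out they were 0 to 1 in both (Lims1, without experiment 1). The median change ran from 0.058 to 0.13 after the antibody, from -0.053 to 0.011 after HGF/SF1 (above 0 without untreated array 2) and from 0.069 to 0.20 between the treatments. Without 1 experiment it ran from 0.055 to 0.17, from -0.061 to -0.017 and from 0.064 to 0.15. Lims1 in both comparisons with the antibody and Lpp against untreated were called in 19 of 19 alternatives, Actn1 after the antibody in 14, Lims2 and Csk in 13, Git2 in 11 and Pak2 in 6.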
